A study of Mus musculus with 2 samples.

Results

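The cells described here are macrophages of 2 mouse tumour sections that carry transcripts of Folr2, Retnla, Cd209a, F13a1 and Lyve1, genes known from macrophages that live in connective tissue. They were chosen by their own counts. A segmented cell was taken when it held 40 or more gene counts, 2 or more different genes among those 5, at least 1 count of Cd68 or Mrc1, no count of the vessel genes Prox1, Mmrn1 and Pecam1, and at most 1 count of Epcam. The gate found 16612 cells among 516855 segmented cells, of which 397111 had 40 or more counts. It found 7205 cells in the RKP section and 9407 in the EKP section. Cells of 1 section share that section and are not replicates.

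Both tumours were subcutaneous allografts labelled as diffuse gastric cancer. RKP and EKP are tumour cell lines grown in flat culture. The labels use these letters without spelling them out, and do not say whether a line is 1 clone. In both groups 5-week-old C57BL/6 mice received injections of 3000000 cells, mixed with the basement membrane gel Matrigel, into both flanks, and tumours of about equal final volume were embedded in paraffin. Xenium In Situ, an imaging method that counts single transcripts in tissue, was run with a mouse panel of 379 genes and 100 added genes on 1 slide, with 1 section per line. There is therefore no replicate section, no test between RKP and EKP is possible, and every interval below is a 95% interval that covers counting error only.

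Macrophages that settle in connective tissue take up debris through scavenger and lectin receptors. MRC1 is the mannose receptor, CD209A is a C-type lectin, LYVE1 binds hyaluronan, and FOLR2 binds folate. Retnla encodes a secreted protein induced in mouse macrophages by interleukin 4 and interleukin 13, and F13a1 encodes the catalytic subunit of the clotting factor that crosslinks fibrin. Arginase 1, encoded by Arg1, is a common marker of macrophages that accumulate in tumours.

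Gated cells held a median of 136 gene counts in RKP and 134 in EKP, so their depth was nearly equal. All segmented cells held a median of 154 counts in RKP and 84 in EKP, and fewer EKP cells reached 40 counts (161996 of 261111, against 235115 of 255744 in RKP). Negative control probes took 29.6 of every 1000000 counts in RKP gated cells and 36.6 in EKP gated cells. For the tumour label, Epcam, an adhesion molecule of epithelial cells, was looked up: 73160 RKP cells and 42805 EKP cells held 5 or more counts of it. The files of both sections share 19 cell barcodes, none of them gated in both sections.

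Not every gene of the gate marked these cells alike. F13a1 was detected in 94.0% of RKP gated cells (93.5 to 94.6%) and 98.5% of EKP gated cells (98.2 to 98.7%). Folr2 was detected in 76.9% of RKP gated cells (75.9 to 77.9%) and 77.4% of EKP gated cells (76.6 to 78.3%). Cd209a was detected in 29.7% of RKP and 27.3% of EKP gated cells. Retnla was found in a minority, 22.7% of RKP gated cells (21.8 to 23.7%) and 13.7% of EKP gated cells (12.99 to 14.4%). Lyve1 was found in 12.3% of RKP gated cells (11.5 to 13.1%) and 30.2% of EKP gated cells (29.3 to 31.2%). The pair that leads in both sections is thus Folr2 and F13a1, and the cells are called Folr2 F13a1 macrophages from here on. These values chose the cells and are a description, as are the shares with Mrc1 (90.9% in RKP, 92.4% in EKP) and with Cd68, a lysosomal macrophage protein (67.6% in RKP, 71.6% in EKP).

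**Figure D1:**
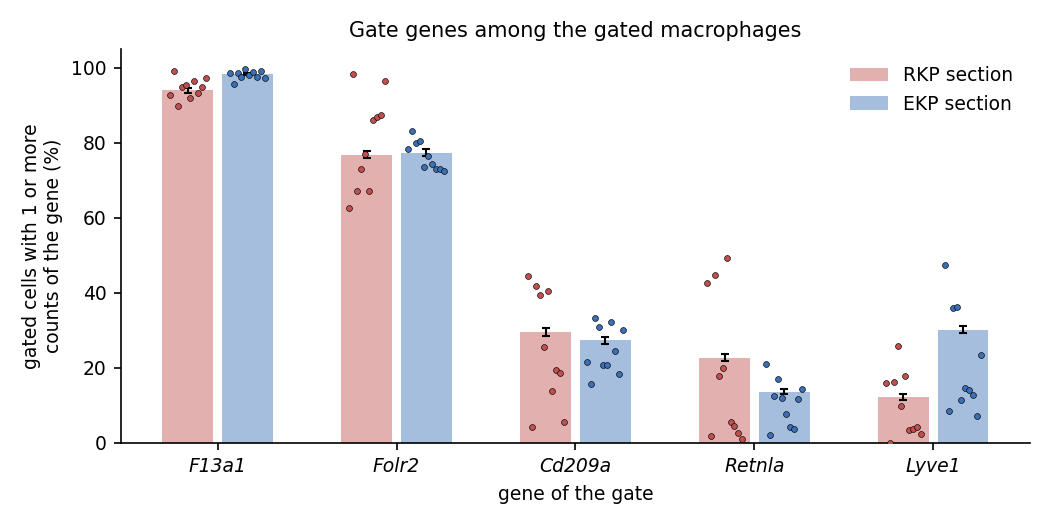
Share of Folr2 F13a1 macrophages with 1 or more counts of each gate gene (vertical axis, percent) in the RKP and EKP sections. Bars are the section values with exact 95% intervals, and points are 10 successive parts of each file. F13a1 stood at 94.0% in RKP and 98.5% in EKP, while the Retnla points ran between 1.15 and 49.4% in RKP and between 2.11 and 21.1% in EKP.

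Most gated cells passed with the smallest number of genes. Exactly 2 of the 5 genes were detected in 73.4% of RKP and 63.4% of EKP gated cells. Cells with Folr2 and F13a1 and none of the other genes were the largest combination, 3607 cells (50.1%) in RKP and 4005 (42.6%) in EKP. Folr2, F13a1 and Lyve1 together made up 2.85% of gated cells in RKP and 13.4% in EKP. Cd209a with F13a1 made up 9.70% in RKP and 9.04% in EKP. All 5 genes were detected in 81 RKP cells and 90 EKP cells. Just outside the gate, 16514 RKP cells and 15839 EKP cells met every other condition with 1 of the 5 genes.

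Transcripts can be assigned to a neighbouring cell. The gate was therefore also set against cells gated on Epcam or on fibroblast genes, with every cell thinned at random to 40 counts. After thinning, 2 of the 5 genes were detected in 4.34% of RKP and 10.00% of EKP cells that met every other condition, a group not chosen by the 5 genes. In the gated cells, which the genes chose, the shares were 39.3% in RKP and 47.8% in EKP. Among Epcam-high cells the share was 0.0342% in RKP and 0.0421% in EKP, from median depths of 241 counts in RKP and 261 in EKP. Fibroblast-gated cells hold 2 or more of Dpt, Pi16, Lum and Mfap5 and no Cd68, Mrc1, Pecam1 or Epcam. Among them the share was 1.83% in RKP and 1.32% in EKP. This group by definition leaves out fibroblasts with any Cd68 or Mrc1 count, so its share can understate transcripts received from macrophages. Before thinning the share of Epcam-high cells was 0.510% in RKP and 0.857% in EKP, and that of fibroblast-gated cells 5.54% in RKP and 5.44% in EKP. F13a1 by itself was more widespread. After thinning it was detected in 8.61% of RKP and 12.8% of EKP fibroblast-gated cells, against 58.8% of RKP and 74.8% of EKP gated cells. Among Epcam-high cells F13a1 was at 1.30% in RKP and 2.33% in EKP. Folr2 was detected in 1.69% of RKP and 1.59% of EKP fibroblast-gated cells. The gated cells held 45.2% of all Folr2 counts of the RKP section and 66.9% of those of the EKP section. For Lyve1, which lymphatic vessels also express, the shares were 13.3% in RKP and 54.6% in EKP.

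Start-site sequences show 4 genes that the description rests on. Folr2 is a gate gene found in most of the cells, Retnla one found in a minority, and Pf4 and Ms4a7 are the most abundant of the genes outside the gate that were named as higher in gated cells. The windows are RefSeq promoters on build GRCm38.p6, 250 bases before and 50 after a start site, written 5′ to 3′ on the strand of the gene. Capitals mark the letters GAGGAA, the core of many binding sites of the myeloid factor PU.1, and TTCNNNNGAA, the spaced palindrome of STAT6, each on either strand.
Folr2, first of the start sites listed, chr7:101857141-101857440, minus strand: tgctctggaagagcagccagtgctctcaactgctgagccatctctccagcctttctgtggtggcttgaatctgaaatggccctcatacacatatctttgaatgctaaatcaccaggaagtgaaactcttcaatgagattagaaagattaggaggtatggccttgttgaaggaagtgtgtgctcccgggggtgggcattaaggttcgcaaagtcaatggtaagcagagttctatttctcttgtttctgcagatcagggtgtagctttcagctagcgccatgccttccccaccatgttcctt
Retnla, chr16:48842359-48842658, plus strand: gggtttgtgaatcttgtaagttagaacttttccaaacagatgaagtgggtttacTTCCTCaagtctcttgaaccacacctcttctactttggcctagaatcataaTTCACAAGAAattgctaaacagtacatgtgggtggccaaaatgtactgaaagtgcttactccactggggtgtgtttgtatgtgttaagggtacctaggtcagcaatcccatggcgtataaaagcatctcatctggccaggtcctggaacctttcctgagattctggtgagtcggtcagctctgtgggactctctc
Pf4, chr5:90772185-90772484, plus strand: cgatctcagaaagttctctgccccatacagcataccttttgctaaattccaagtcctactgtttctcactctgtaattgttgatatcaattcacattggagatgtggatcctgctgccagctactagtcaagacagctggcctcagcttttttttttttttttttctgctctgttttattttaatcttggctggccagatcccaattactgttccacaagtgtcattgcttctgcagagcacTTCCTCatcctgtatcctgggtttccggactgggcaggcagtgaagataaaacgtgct
Ms4a7, first of the start sites listed, chr19:11336097-11336396, minus strand: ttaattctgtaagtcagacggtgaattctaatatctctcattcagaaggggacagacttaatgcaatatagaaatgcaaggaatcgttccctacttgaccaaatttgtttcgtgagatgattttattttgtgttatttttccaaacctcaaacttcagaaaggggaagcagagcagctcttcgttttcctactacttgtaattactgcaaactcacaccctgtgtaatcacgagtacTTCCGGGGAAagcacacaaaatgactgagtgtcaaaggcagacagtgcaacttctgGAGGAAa

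The Retnla and Ms4a7 windows hold 1 match to each motif, the Pf4 window holds 1 GAGGAA, and the Folr2 window holds neither. GAGGAA occurs in 28.3% and TTCNNNNGAA in 6.95% of the 32851 promoter windows in the table. A match here is a description of the letters, not evidence of a site. RefSeq windows were matched for 9 of the 10 genes looked up. The exception is Lyve1.

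The Folr2 F13a1 macrophages took a smaller share of the RKP section. They made up 3.06% of RKP cells with 40 or more counts (3.00 to 3.13%) and 5.81% of EKP cells (5.69 to 5.92%), a share 1.89-fold lower in RKP (1.84 to 1.95). Among cells that met every other condition of the gate, they were 11.0% in RKP and 20.9% in EKP. With all cells thinned to 40 counts before gating the shares were 1.04% in RKP and 2.47% in EKP, 2.38-fold lower in RKP. Of all segmented cells, the shallow ones included, they were 2.82% in RKP and 3.60% in EKP, which is 1.28-fold lower in RKP and below the 1.5-fold used here as the size to count. That choice of denominator alone took the difference under 1.5-fold.

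The share also varied within each section. Cell positions were not used here, so each file was divided into 10 successive parts as a partial stand-in for place. Across RKP parts the share of gated cells ran from 0.466 to 5.21% with a median of 3.22%. Across EKP parts it ran from 0.876 to 13.2% with a median of 4.58%. The ranges of both sections overlap widely, and 1 EKP part held 2975 of the gated EKP cells. Without that part the EKP share was 4.61%, against 3.06% in RKP, a share 1.51-fold lower in RKP. Gated cells tended to follow each other in the file. The next cell in the file was also gated in 24.9% of cases in RKP and 33.8% in EKP.

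**Figure D2:**
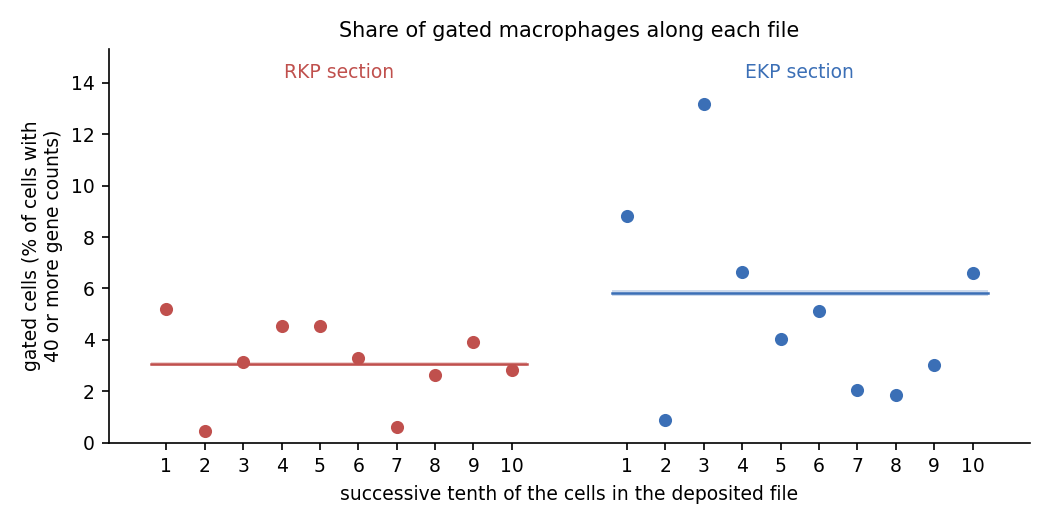
Folr2 F13a1 macrophages as a percent of cells with 40 or more gene counts (vertical axis) in 10 successive parts of the RKP file and of the EKP file (horizontal axis). Points are parts, and lines with narrow bands are the section share and its exact 95% interval, 3.06% in RKP and 5.81% in EKP. The parts spread from 0.466 to 5.21% in RKP and from 0.876 to 13.2% in EKP and overlap.

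The makeup of the gated cells changed along the files too. Retnla was detected in between 1.15 and 49.4% of gated cells in RKP parts and between 2.11 and 21.1% in EKP parts. Lyve1 ran from 0 to 25.7% in RKP parts and from 7.28 to 47.3% in EKP parts. Folr2 was detected in 98.3% of the 116 gated cells of the RKP part where Lyve1 was at 0. There 4.31% held Cd209a and 1.72% held Retnla. For each of these genes the ranges over parts overlapped between the sections.

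Genes outside the gate were next compared with those of other cells of the same section. These cells met every other condition (Cd68 or Mrc1 counts, no vessel genes, at most 1 Epcam) and had none of the 5 genes. These comparison cells numbered 41547 in RKP and 19753 in EKP, with medians of 145 counts in RKP and 133 in EKP. Summed counts of each group are given per 1000000 gene counts (CPM). A gene entered when it had more counts than any negative control probe, and 2-fold was the size to count. Since the gate used genes of these cells, the values describe how gated cells look and are no test.

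In both sections the gated cells held more of the myeloid genes Pf4, Ccl12, Ms4a7 and Ms4a6b. Pf4, a platelet and macrophage chemokine, stood at 17296 CPM in RKP gated and 5769 in RKP comparison cells, a log2 difference of 1.58 (1.56 to 1.61). In EKP it stood at 24084 CPM in gated and 6138 in comparison cells, 1.97 (1.95 to 2.00). Ccl12, a chemokine that draws monocytes, had log2 differences of 2.39 in RKP (2995 CPM in gated, 570 in comparison cells) and 3.02 in EKP (4265 in gated, 525 in comparison cells). Ms4a7, a membrane protein of mature macrophages, differed by 1.57 in RKP and 1.83 in EKP, and its relative Ms4a6b by 1.45 in RKP and 2.02 in EKP. All 4 genes were also above 2-fold in the same direction in cells with no count of the fibroblast genes Dpt, Pi16, Lum and Mfap5. Without such counts Ccl12 stood at 2.40 in RKP and 3.30 in EKP, and Pf4 at 1.57 in RKP and 1.97 in EKP.

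Cd5l encodes a secreted scavenger protein of tissue macrophages that protects them from apoptosis. It stood at 33.2 CPM in RKP gated cells, with comparison cells at or below the highest control probe, so it was at least 9.59-fold higher in gated cells there. In EKP it stood at 480 CPM in gated and 20.7 in comparison cells, 23.2-fold higher in gated cells. Gated cells made up 31.3% of all Cd5l counts of the EKP section and 18.9% of those of the RKP section.

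Over all kept genes, 20 of 429 (4.66%) were at least 2-fold higher in gated than in comparison cells in both sections and 41 (9.56%) at least 2-fold lower. The median log2 difference was -0.13 in RKP and -0.76 in EKP, so in EKP most genes stood below the level of the comparison cells. Within the EKP section 6.68% of kept genes were higher and 35.3% lower at 2-fold, and within RKP 11.8% were higher and 11.8% lower. The 4 resident macrophage genes outside the gate (Pf4, Cd5l, Marco and Dnase1l3) had a median difference of 0.97 in RKP and 1.82 in EKP, with 2 of 4 past 2-fold in RKP and 3 of 4 in EKP. Dnase1l3, a secreted nuclease of macrophages and dendritic cells, differed by 0.36 in RKP and by -0.91 in EKP. The 5 general macrophage genes (Ctss, Mpeg1, Ms4a7, Itgam and Cd86) had medians of 0.14 in RKP and 0.41 in EKP, and both groups carried them. Their directions were split. Averaged over both sections, the log2 difference was 1.70 for Ms4a7, 0.62 for Itgam, 0.27 for Ctss, -0.34 for Cd86 and -0.43 for Mpeg1. Ctss, a lysosomal protease, was at 74122 CPM in RKP gated and 67369 in RKP comparison cells, and at 69646 in EKP gated and 52397 in EKP comparison cells.

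**Figure D3:**
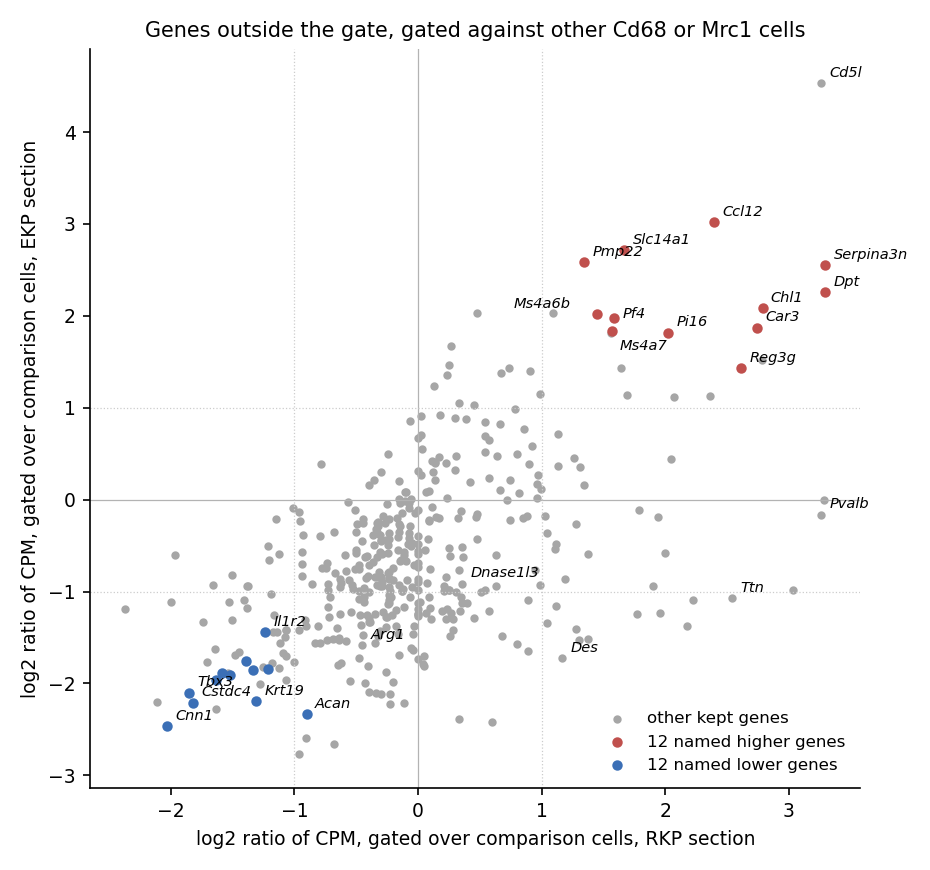
Each point is a gene outside the gate, placed by its log2 ratio of CPM in Folr2 F13a1 macrophages over comparison cells in the RKP section (horizontal axis) and in the EKP section (vertical axis). Dotted lines mark 2-fold, and a gene at or below the highest control probe on 1 side is placed at its lower bound. Red points are the 12 named genes higher in gated cells, such as Ccl12 at 2.39 in RKP and 3.02 in EKP, and blue points the 12 named lower ones, such as Cnn1 at -2.03 in RKP and -2.46 in EKP.

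Of the 9 fibroblast genes, 2 were at least 2-fold higher and 1 lower in RKP (median 0.57), and 3 were higher and 0 lower in EKP (median 0.24), beside 11.8% of all kept genes higher in RKP and 6.68% in EKP. Abundant members were near the comparison cells, such as the collagen gene Col1a1, at 40993 CPM in RKP gated and 37190 in RKP comparison cells, and at 66108 in EKP gated and 57221 in EKP comparison cells. Several of the 12 named higher genes were also abundant in fibroblast-gated cells. Serpina3n, a secreted protease inhibitor, was at 6378 CPM in RKP gated and 651 in RKP comparison cells (log2 3.29), and at 9800 in EKP gated and 1670 in EKP comparison cells (2.55). Dpt, which encodes the matrix protein dermatopontin, differed by 3.29 in RKP and 2.26 in EKP. Pi16, a marker of adventitial fibroblasts, differed by 2.03 in RKP and 1.82 in EKP. Chl1, a cell adhesion molecule, differed by 2.79 in RKP and 2.08 in EKP, and the carbonic anhydrase gene Car3 by 2.74 in RKP and 1.87 in EKP. Fibroblast-gated cells carried Serpina3n at 6594 CPM in RKP and 7043 in EKP and Dpt at 4371 in RKP and 5779 in EKP, while gated cells held Dpt at 3800 in RKP and 7583 in EKP. Pmp22, a membrane protein best known from myelin, differed by 1.34 in RKP and 2.58 in EKP. Slc14a1, a urea transporter, differed by 1.67 in RKP and 2.72 in EKP, and Reg3g, an antimicrobial lectin, by 2.61 in RKP and 1.43 in EKP. In EKP the Reg3g difference was -0.088 when cells were gated after thinning, 0.25 without fibroblast counts and 0.46 without epithelial counts.

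All 9 fibroblast genes of the panel's list were above the highest control probe in RKP gated cells and 8 of 9 in EKP gated cells, the exception being the Wnt inhibitor Wif1 (26.0 CPM in RKP, 8.61 in EKP). Their summed level was 70474 CPM in RKP gated and 53538 in RKP comparison cells, against 151955 in RKP fibroblast-gated cells. In EKP it was 120419 in gated and 91308 in comparison cells, against 173730 in fibroblast-gated cells. Only 38.4% of RKP and 20.2% of EKP gated cells had no count of Dpt, Pi16, Lum or Mfap5, against 56.1% of RKP and 42.4% of EKP comparison cells. In those cells the number of genes 2-fold higher in both sections was 10. The part of neighbouring fibroblasts in these levels was not tested.

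Lower in gated than in comparison cells were most of the listed genes of contractile and epithelial cells. Cnn1, calponin of smooth muscle, was at 187 CPM in RKP gated and 763 in RKP comparison cells (log2 -2.03), and at 248 in EKP gated and 1364 in EKP comparison cells (-2.46). Tagln and Myh11, a further actin-binding protein and the smooth muscle myosin, differed by -1.39 and -1.34 in RKP and by -1.75 and -1.86 in EKP. Of the 7 contractile and pericyte genes 4 in RKP and 6 in EKP were at least 2-fold lower. Across all kept genes these shares were 11.8% in RKP and 35.3% in EKP. In RKP 1 of the 7, Des, was at least 2-fold higher (1.17), while in EKP it was lower (-1.72). Krt19, a keratin of simple epithelia, differed by -1.31 in RKP and -2.19 in EKP. The tight junction gene Cldn4 differed by -1.63 in RKP and -1.96 in EKP, the stem cell glycoprotein gene Prom1 by -1.58 in RKP and -1.89 in EKP, Serpinb5 (maspin) by -1.52 in RKP and -1.91 in EKP and the calcium-binding S100a14 by -1.21 in RKP and -1.84 in EKP. Of the 13 epithelial genes 9 in RKP and 12 in EKP were at least 2-fold lower, beside 11.8% of all kept genes in RKP and 35.3% in EKP. Most comparison cells carried epithelial counts. Only 29.8% of them in RKP and 38.9% in EKP had no count of Krt8, Krt19 or Cdh1, against 52.5% of RKP and 73.4% of EKP gated cells. In cells without such counts Cldn4 differed by -1.13 in RKP and -1.17 in EKP. The part of neighbouring epithelial cells in these levels was not tested. Cstdc4, a cysteine protease inhibitor of the stefin family, differed by -1.82 in RKP and -2.21 in EKP, the transcription factor gene Tbx3 by -1.85 in RKP and -2.10 in EKP, and Acan, which encodes the cartilage proteoglycan aggrecan, by -0.90 in RKP and -2.33 in EKP. Il1r2, the decoy receptor of interleukin 1 found on neutrophils, differed by -1.24 in RKP and -1.44 in EKP.

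Set against the comparison cells with Mmp8 counts (2954 in RKP, 1060 in EKP), Mmp8 being a collagenase of neutrophils, the same myeloid genes were higher in gated cells. Ccl12 differed by 2.88 in RKP and 3.23 in EKP, Ms4a7 by 2.18 in RKP and 2.03 in EKP, and Pf4 by 1.21 in RKP and 1.34 in EKP. Arg1 differed by -1.11 in RKP and -2.24 in EKP. In this comparison 27.3% of kept genes in RKP and 7.61% in EKP were at least 2-fold higher, and 10.8% in RKP and 35.3% in EKP at least 2-fold lower.

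Arg1 was less abundant in gated than in comparison cells, more so in EKP. It stood at 23240.0 CPM in RKP gated and 31740 in RKP comparison cells, a log2 difference of -0.45 that is under 2-fold. In EKP it stood at 6191 CPM in gated and 18515 in comparison cells, -1.58. The RKP gated cells with Folr2 and F13a1 only held 34919 CPM of Arg1, above the RKP comparison cells. Those with Retnla, Cd209a or Lyve1 held 7075. In EKP both of these groups were below the comparison cells, at 9575 and 3382 CPM. In cells with no count of Krt8, Krt19 or Cdh1 the differences were -1.40 in RKP and -2.34 in EKP. In cells with no fibroblast counts they were 0.04 in RKP and -0.86 in EKP, so there the RKP difference was gone. Mki67, a nuclear protein of dividing cells, differed by -0.43 in RKP and -0.63 in EKP, and the topoisomerase gene Top2a by -0.44 in RKP and -0.96 in EKP.

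Several genes outside the gate changed in steps with the number of gate genes detected, and for some of them the grading runs across the gate's edge. Arg1 in RKP stood at 31740, 33006, 28822, 5498 and 1582 CPM in cells with 0, 1, 2, 3 and 4 or 5 of the 5 genes. In EKP it stood at 18515, 15564, 8430, 2253 and 1949 CPM over the same steps. Arg1 thus stayed high in RKP up to the cells with 2 genes, just inside the gate, and was low in both sections once 3 were detected.

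Ccl9, a chemokine of macrophages, went the other way among the gated cells, with 22766, 28234 and 36967 CPM in RKP at 2, 3 and 4 or 5 genes and 18555, 32461 and 40984 CPM in EKP. At 0 and 1 gene Ccl9 stood at 24270 and 19530 CPM in RKP and at 12923 and 14971 in EKP. In RKP the cells with 2 genes thus held less Ccl9 than those with none. Ccl12 stood at 570, 1338, 2754, 3624 and 4245 CPM in RKP and at 525, 1652, 3675, 5256 and 5508 in EKP from 0 genes upward. Pmp22 reached 3771 CPM in RKP and 7016 in EKP at 4 or 5 genes, against 693 CPM in RKP and 594 in EKP at none. Pf4 did not keep rising: it was highest at 2 genes in RKP (18165 CPM) and stood at 11325 at 4 or 5, while in EKP it was 23770 at 2 genes and 23959 at 4 or 5.

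Some fibroblast, epithelial and tumour-associated genes were graded as well. Dpt was at 388 CPM in RKP and 1587 in EKP at no gate gene and at 10969 in RKP and 9112 in EKP at 4 or 5. Pi16 also rose in EKP, from 618 CPM at no gate gene to 2294 at 4 or 5. Lum and Mfap5 did not follow Dpt in EKP. Lum, which encodes the matrix proteoglycan lumican, was at 10166, 14400, 15568, 12453 and 8582 CPM there from 0 genes upward. Mfap5 was at 3175 CPM at none and 1838 at 4 or 5 in EKP. Krt8, a keratin of simple epithelia, was at 9915 in RKP and 9535 in EKP at none and at 883 in RKP and 743 in EKP at 4 or 5. Vegfa, the vessel growth factor induced by low oxygen, was at 5122 in RKP and 6092 in EKP at none and at 475 in RKP and 397 in EKP at 4 or 5. Cells with more of the 5 genes did not hold more counts in RKP, where medians were 144, 115 and 121 at 2, 3 and 4 or 5 genes, and in EKP they were 134, 132 and 143.

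**Figure D4:**
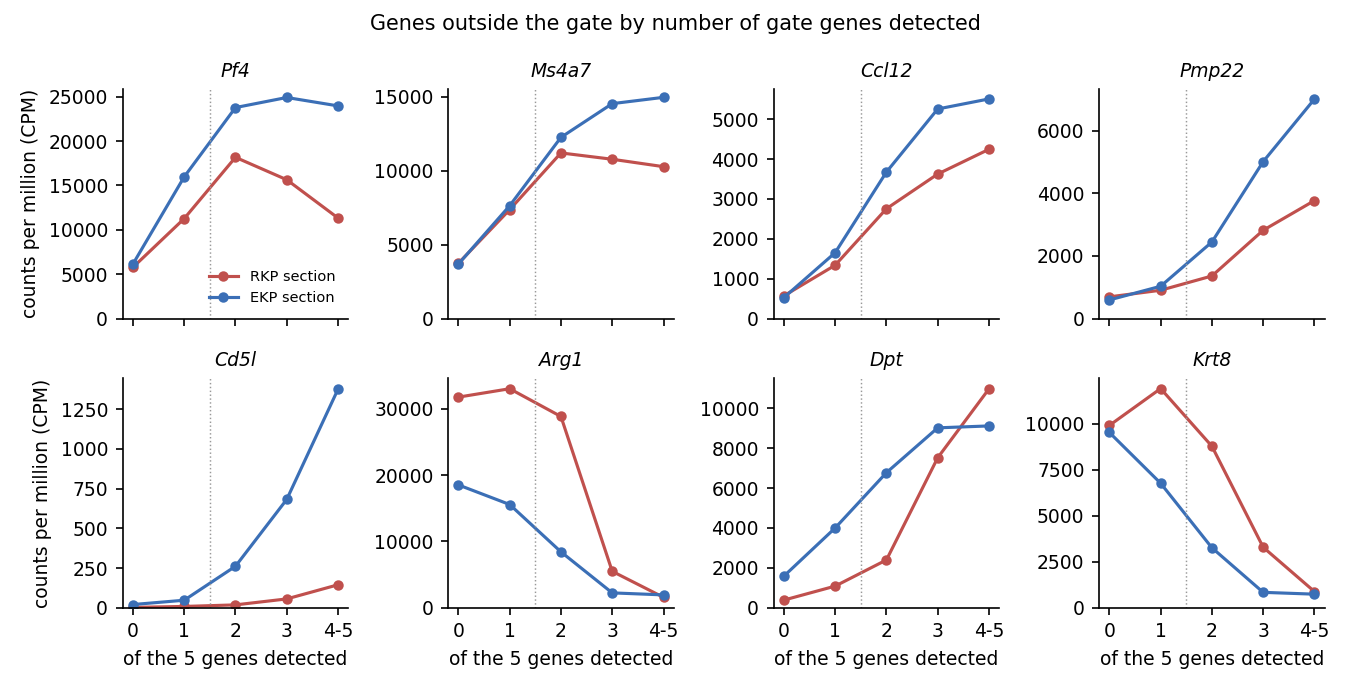
Level of 8 genes outside the gate in CPM (vertical axes, each from 0) by the number of the 5 gate genes detected (horizontal axes), in RKP and EKP cells that meet every other condition. Cells right of the dotted line are gated. Arg1 and Krt8 were low at 4 or 5 genes (Arg1 1582 CPM in RKP, 1949 in EKP), whereas Ccl12, Pmp22 and Cd5l were highest there (Cd5l 145 CPM in RKP, 1375 in EKP).

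Splitting the gated cells by single gate genes gave groups that differed in other genes. Cells with Lyve1 held less Arg1 than cells without it, 6471 against 25206 CPM in RKP and 2677 against 7620 in EKP. Lyve1 cells also held less Atp6v0d2, a subunit of the vacuolar proton pump (496 against 2215 CPM in RKP, 452 against 2046 in EKP), and more Pmp22 (3411 against 1564 in RKP, 5639 against 2716 in EKP). Cells with Cd209a likewise held less Arg1 (6152 against 29503 CPM in RKP, 2874 against 7459 in EKP) and less Atp6v0d2. Cells with Retnla held more Ifitm6, an interferon-induced membrane protein of myeloid cells, 464 against 191 CPM in RKP and 974 against 355 in EKP. They also held more Cyp4b1, a cytochrome P450 (960 against 353 CPM in RKP, 864 against 416 in EKP), and less Tagln. Cells with Folr2 held less Il1r2, 1360 against 2976 CPM in RKP and 1608 against 3347 in EKP.

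The gated cells with Folr2 and F13a1 only and those with Retnla, Cd209a or Lyve1 therefore differed in Arg1. The 3607 RKP cells with Folr2 and F13a1 only held 34919 CPM, and the 3598 RKP cells with any of the other genes held 7075. In EKP the 4005 cells with Folr2 and F13a1 only held 9575 CPM and the 5402 others held 3382. Cells with Folr2 and F13a1 only were deeper, with median counts of 164 against 112 in RKP and 144 against 129 in EKP.

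Among genes at 300 CPM or more, the largest ratios toward RKP in gated cells were mostly in skeletal muscle, growth factor, transcription factor and epithelial genes. The largest toward EKP was that of Cd5l, a macrophage gene. Of 411 kept genes outside the gate, 88 (21.4%) stood 2-fold or more above EKP in RKP and 36 (8.76%) stood 2-fold or more below EKP in RKP. The median log2 ratio of RKP over EKP was 0.06. The highest ratios belonged to skeletal muscle genes. Ttn, the giant spring protein of the sarcomere, stood at 1757 CPM in RKP (1680.0 to 1836) and 39.5 in EKP (29.7 to 51.4), log2 5.48. Pvalb, the calcium buffer of fast fibres, had a log2 ratio of 5.37, the fast-fibre actinin gene Actn3 4.73, and the muscle glycogen phosphorylase gene Pygm 4.24. Des, which encodes the muscle intermediate filament desmin, had 2.86, and Ppargc1a, a coactivator of mitochondrial genes, 3.12.

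These muscle genes were unevenly spread. Over the 10 RKP parts Ttn ran from 0 to 9315 CPM with a median of 99.5, and over the EKP parts from 0 to 101 with a median of 48.9. The ranges overlap, and the high section value rested on few parts. Of RKP gated cells 89.0% had no count of 7 skeletal muscle genes, and of EKP gated cells 97.7%. In those cells the Des ratio was 0.48, while that of Ppargc1a was 3.37. The list's 3 genes summed to 2776 CPM in RKP gated cells, 506 in RKP comparison cells and 5005 in RKP fibroblast-gated cells, and to 71.1 CPM in EKP gated, 143 in EKP comparison and 82.5 in EKP fibroblast-gated cells. All 3 were above the control probes in both sections, and the part of adjacent muscle in the ratios was not tested.

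Growth factor, transcription factor and epithelial genes formed the next group, and the source of their counts in gated cells was not tested. Areg, a ligand of the epidermal growth factor receptor, stood at 3728 CPM in RKP and 294 in EKP gated cells, log2 3.67, and at 3778 CPM in all other RKP cells and 3060 in all other EKP cells. Tspan8, a tetraspanin of epithelial cells, stood at 3326 in RKP and 228 in EKP gated cells (3.87), and at 7310 in all other RKP cells and 2994 in all other EKP cells. Sox2, a stem cell transcription factor gene, stood at 5343 in RKP and 813 in EKP gated cells (2.72). Sox9, a transcription factor gene of epithelial progenitors, had 2.71, the Notch target gene Hey1 3.68, and the heparin-binding growth factor gene Ptn 3.16. In gated cells with no count of Krt8, Krt19 or Cdh1 (52.5% in RKP, 73.4% in EKP), Ptn was at 0.65, Sox9 at 1.23 and Hey1 at 1.81, while Areg was at 3.00, Tspan8 at 3.43 and Sox2 at 2.45. The 13 epithelial genes, all above the control probes, summed to 13481 CPM in RKP and 5988 in EKP gated cells, with 6 of 13 at least 2-fold higher in RKP, beside 21.4% of all kept genes.

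Arg1 was the most abundant of the 88 genes at least 2-fold higher in RKP. It stood at 23240.0 CPM in RKP gated cells (22958 to 23525) and 6191 in EKP gated cells (6061 to 6323), log2 1.91. Over parts it ran from 7841 to 49696 CPM in RKP with a median of 23707, and from 1340 to 36101 in EKP with a median of 7747, so the ranges overlap. It was detected in 48.0% of RKP and 20.01% of EKP gated cells, or 33.7% in RKP and 10.8% in EKP after thinning. Comparison cells showed a ratio of 0.78, and all other cells held 17101 CPM in RKP and 9019 in EKP. The ratio was 1.86 without epithelial counts, 1.24 without fibroblast counts and 0.996, under 2-fold, in cells with 3 or more of the 5 genes. Gated cells with Retnla held 5457 CPM in RKP and 5222 in EKP, and cells with 4 or 5 of the genes held 1582 in RKP and 1949 in EKP, so in these cells Arg1 was not higher in RKP by 2-fold. Vegfa (1.56) was the other member past 2-fold of the 6 inflammatory and tumour macrophage genes, whose median was 0.31, whereas Ccl9 was at 0.01, Mmp9 at -0.01 and Ccl12 at -0.51.

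Lower in RKP were Cd5l, Cd36 and a group of matrix and stromal genes. Cd5l stood at 33.2 CPM in RKP (23.4 to 45.7) and 480 in EKP (444 to 517), log2 -3.85, and was detected in 0.472% of RKP and 3.27% of EKP gated cells. Over parts it ran from 0 to 131 CPM in RKP with a median of 21.7, and from 0 to 1531 in EKP with a median of 30.0, so the section values differ more than the medians of the parts. Cd36, a scavenger receptor that imports fatty acids, stood at 759 CPM in RKP and 3469 in EKP (-2.19). Over parts Cd36 ran from 124 to 1499 CPM in RKP and from 640 to 8907 in EKP.

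Sfrp1, a secreted Wnt antagonist of fibroblasts, stood at 3417 CPM in RKP and 11625 in EKP gated cells (log2 -1.77), and at 1283 in all other RKP cells and 3535 in all other EKP cells. Mfap5 (microfibril protein) had -1.15, Igfbp6 (binding protein of insulin-like growth factors) -1.10, Pmp22 -1.02 and Fxyd1 (regulator of the sodium pump) -1.09. Ecrg4, a secreted peptide precursor gene, had -1.73, Sbsn (suprabasin) -1.19, and Hpgd, which encodes the enzyme that inactivates prostaglandins, -1.29. Stfa2l1, a stefin gene, had -1.69. The 9 fibroblast genes had a median of -0.69, with 2 of 9 at least 2-fold lower in RKP and 1 higher (8.76% and 21.4% of all kept genes), and summed to 70474 CPM in RKP and 120419 in EKP gated cells. In cells with 3 or more of the 5 genes Mfap5 was at -0.36, Igfbp6 at -0.49, Sbsn at -0.55, Fxyd1 at -0.58, Ecrg4 at -0.71, Pmp22 at -0.84 and Hpgd at -0.88, all under 2-fold, and the list median was -0.08. Sfrp1 (-1.17), Cd36 (-2.10) and Cd5l (-3.40) were past 2-fold there. Without epithelial counts Mfap5 was at -0.58, Igfbp6 at -0.61, Fxyd1 at -0.58 and the list median at -0.31.

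**Figure D5:**
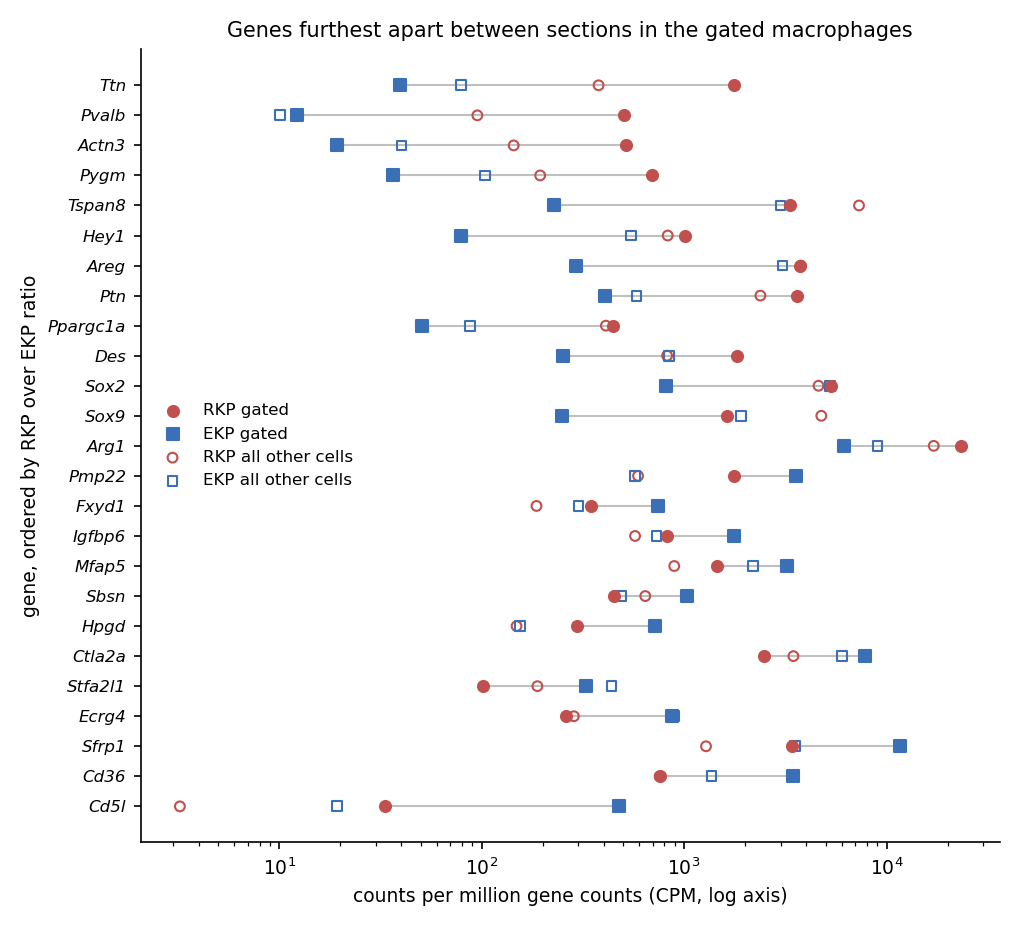
CPM (horizontal axis, log scale) of the named genes furthest apart between sections and of Arg1, in RKP (red circles) and EKP (blue squares). Filled marks are Folr2 F13a1 macrophages and open marks all other cells with 40 or more counts outside the gate. Ttn stood at 1757 CPM in RKP and 39.5 in EKP gated cells, and Cd5l at 33.2 in RKP and 480 in EKP gated cells.

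Genes that defined macrophages in general moved little. The 5 general macrophage genes had a median log2 ratio of RKP over EKP of 0.07, with 0 of 5 past 2-fold, and Ctss was at 0.09. Of the 4 resident genes, Cd5l and Marco, a scavenger receptor, were at least 2-fold lower in RKP (-3.85 and -1.16), while Pf4 (-0.48) and Dnase1l3 (-0.13) were not. The 5 chemokine genes had a median of -0.51 and 0 of 5 past 2-fold. Among dividing-cell genes 1 of 6, Ube2c, was past 2-fold (1.22), with Mki67 at 0.78 and Top2a at 0.88. These counts are read against the 21.4% of all kept genes higher and 8.76% lower in RKP.

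Markers of other immune cells were present in the gated cells. The 8 T and NK cell genes summed to 3688 CPM in RKP and 1600 in EKP gated cells, beside 2644 in RKP and 2136 in EKP comparison cells and 2205 in all other RKP and 1306 in all other EKP cells. All 8 were above the control probes, with 5 of 8 at least 2-fold higher in RKP, beside 21.4% of all kept genes, and a median of 1.08. Ctla4, an inhibitory receptor of T cells, had 2.02 and the granzyme gene Gzmb 1.56. The 7 neutrophil genes summed to 16876 CPM in RKP and 22215 in EKP, mostly through Alox5ap (10318 CPM in RKP, 13384 in EKP), which macrophages also express, and had a median of -0.48. All other cells summed to 11750 CPM of them in RKP and 9656 in EKP. Mast cell genes Cpa3 and Cyp11a1 had ratios of 1.05 and 2.06, from sums of 608 CPM in RKP and 249 in EKP, beside 345 in all other RKP and 196 in all other EKP cells. Of other tissues, the 5 squamous genes had a median of 1.87 (-0.14 in cells without fibroblast counts), with sums of 389 CPM in RKP and 96.2 in EKP. Of these 5 genes, 4 were at least 2-fold higher and 1 lower in RKP, beside 21.4% and 8.76% of all kept genes. Only 3 of the 5 were above the control probes in EKP gated cells. Medians were -0.41 for the 7 contractile genes, 0.03 for the 9 endothelial genes and 0.67 for the 3 hypoxia genes. The part of neighbouring cells in these levels was not tested.

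Only 3 of the 411 genes had ranges over the 10 parts that did not overlap between the sections. Higher in RKP in this way were 2 genes (0.487%), and lower in RKP was 1 (0.243%). They were singled out after their values were seen. Hif1a, the oxygen-sensing transcription factor gene, ran from 13406 to 18620 CPM in RKP and from 8684 to 11883 in EKP (log2 0.67 over the sections). Mdm2, the ligase that limits p53, ran from 4076 to 6474 in RKP and from 2973 to 3974 in EKP (0.60). Ctla2a, an inhibitor of cathepsin-like proteases, ran from 1054 to 3111 in RKP and from 3373 to 13910 in EKP (-1.66). The log2 ratios of Hif1a and Mdm2 were under 2-fold, while genes with far higher ratios, Ttn and Arg1 among them, overlapped.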

How the data were processed

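Gene counts per segmented cell were deposited by the authors as a sparse matrix for each section. Per the file headers the version of the Xenium software is given as unknown, and the submitters' processing notes list Seurat 4.4.0. How cells were segmented is not stated in the sources used here. Counts of gene features only were summed per cell. The gate was applied to the counts as deposited, groups of cells were summed, and sums were scaled to 1000000 gene counts (CPM). Intervals are exact at 95% (Clopper-Pearson, Poisson, conditional binomial). With 1 section per group no test was made, and 2-fold (shares 1.5-fold) was the size to count. Genes entered when they exceeded the highest of 20 negative control probes in at least 1 group, and the lower group was raised to that level where below it. Named were the gate genes, the 12 genes furthest apart each way at 300 CPM or more, up to 5 members of each list, Arg1, Dnase1l3, Mki67 and Top2a; Mdm2, Wif1 and a few genes of the splits by single gate genes lie outside this rule. Of 23 gene lists, 21 had members on the panel of 479 genes and 15 had 3 or more kept members. The members of the gate and the lists were chosen with earlier results of these data known. Alternatives covered the gate, depth, scaling, filter and denominator, and 3 subsets of cells without fibroblast, epithelial or muscle counts were added after seeing the data. Summing and ratios were tested on simulated data. Python 3.11.15, numpy 2.4.6, scipy 1.17.1, pandas 2.3.3 and matplotlib 3.10.9 were used.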

Additional observations from a re-analysis of the deposited data

Results flagged for a closer look

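Des, the muscle intermediate filament gene, had opposite differences between gated and comparison cells in the sections. The log2 ratio of gated over comparison cells was 1.17 in RKP and -1.72 in EKP. With 1 section per group this difference between sections was not tested. In gated cells with no count of 7 skeletal muscle genes, the ratio of RKP over EKP for Des was 0.48, against 2.86 in all gated cells. Over parts of the file Des ran from 131 to 8633 CPM in RKP gated cells and from 144 to 906 in EKP gated cells.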

How the results depend on the processing

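No paired analysis was possible because each group has 1 section. The share of gated cells, RKP over EKP, was 0.528 and stayed below 1 under every alternative run. It was 0.589 and 0.505 with minimums of 20 and 80 counts, 0.419 after thinning, 0.647 and 0.384 with 1 or 3 of the 5 genes, 0.503 with Cd68 plus Mrc1 at 2 or more, 0.503 with Epcam at 0, 0.548 without the Epcam condition and 0.782 of all segmented cells. Leaving out Folr2, Cd209a, Retnla, F13a1 or Lyve1 gave 0.430, 0.508, 0.509, 0.445 and 0.546. Genes at least 2-fold lower in RKP numbered 36, and 71 without the filter on low genes, 13 with 3 or more of the 5 genes, 119 without fibroblast counts and 13 without epithelial counts. Genes lower in gated than comparison cells in both sections numbered 41, and 101 when gated after thinning, 23 with comparison cells at 1 or none of the 5 genes and 64 without epithelial counts. Higher genes numbered 20, and 10 without fibroblast counts. The median of the squamous list was -0.14 without fibroblast counts, against 1.87, and Reg3g in EKP was -0.088 when gated after thinning, against 1.43. The cause of these changes was not tested. Of 359 single-gene values for RKP over EKP 0 reversed, and of 554 for gated over comparison cells 1 did, where a sign change counts only for values past 2-fold. Most of these genes were named for their large ratios in the same data, so these low numbers are no measure of stability. Dnase1l3, under 2-fold and so not counted, went from -0.13 to 0.59 for RKP over EKP with 3 or more of the 5 genes. There is 1 section per line, the number of animals behind it is not stated, and transcripts are assigned by a segmentation whose method is not known here, so levels of fibroblast, muscle and tumour genes in a gated cell cannot be told apart from those of its neighbours.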
